A study of Mus musculus with 10 samples.

Results

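Broad H3K9lc regions are the stretches of at least 1000 bp in the list of regions where lactylation of histone H3 at lysine 9 (H3K9lc) was profiled in TGF-β-treated cells with and without an siRNA against hexokinase 1 (HK1). They were selected on width alone, and 4506 of 74751 listed regions (6.03%) qualified. The remaining 70245 regions are called narrower here and serve as the contrast. The width comes from peaks the authors called in these same libraries, so read numbers, peak calls and ratios at the broad regions are tied to the selection and are given as descriptions. Sequence content and the libraries of other antibodies were not used by the selection.

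The cells were primary cardiac fibroblasts from mice, profiled by CUT&Tag. This assay brings a transposase to antibody-bound chromatin, where it cuts the DNA and adds sequencing adapters. The main comparison sets an H3K9lc library of cells given TGF-β (TGF) against an H3K9lc library of cells given HK1 siRNA and TGF-β (siHK1). The title of the latter reads SI without naming the target, and the titles of the matching factor libraries read SIHK1. The same pair of conditions was profiled for c-JUN, SMAD3 and NFATC2, and a control library whose labels give no treatment (NC) stands in a further table. Its title names no antibody, and it is taken as H3K9lc from the name of that table. There was 1 library for each condition and antibody. Replicate errors could therefore not be given, and differences between conditions were not tested. An siRNA lowers a transcript without deleting the gene, and the level of HK1 itself was not analysed here. As a check of the cell label, JUN regions lay within 1 kb of the start site of 7 of 12 fibroblast marker genes (among them Pdgfra, Tcf21 and Col1a2), of 2 of 9 cardiomyocyte markers, of 2 of 6 leukocyte markers and of 1 of 5 smooth muscle and pericyte markers. They also lay there at 5 of 6 endothelial markers, so this check did not separate fibroblasts from endothelial cells. Of housekeeping genes 14 of 15 had such a JUN region, so it was not particular to marker genes. H3K9lc regions lay there at 0 of the 12 fibroblast markers, at 1 cardiomyocyte marker (Myh7) and at 1 smooth muscle marker (Cnn1), so the H3K9lc table itself did not show the label.

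Lactylation adds a lactyl group to lysine residues of histones and draws on lactate, the end product of glycolysis, a pathway that HK1 opens by phosphorylating glucose. Acylation of histone tails is generally associated with open chromatin, and wide domains of some active marks are known at genes of cell identity. Much of the mouse genome between genes consists of repeated sequence, including L1 retrotransposons, whose full-length copies begin with a tandem array of short units followed by a long open reading frame, and the satellite arrays beside centromeres. Reads from such sequence fit several places, and a copy missing from the assembly adds its reads to the copies that are present.

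The sequences below are shown because they recur through the broad regions. Each is a run of 30 bases shared by many broad regions of a family, printed 5′ to 3′ with CpG dinucleotides in capitals, and read from a well-covered broad member that holds it (GRCm38).
family 1: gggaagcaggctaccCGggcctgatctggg
family 2: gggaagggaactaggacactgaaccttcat
family 3: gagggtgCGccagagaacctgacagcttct
family 5: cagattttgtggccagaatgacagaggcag
family 7: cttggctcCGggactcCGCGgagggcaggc
These runs lie at chr1:85340102-85340131, chr8:20948024-20948053, chr6:90033650-90033679, chr4:61731386-61731415 and chr6:56246727-56246756, each on the minus strand. Families 4 and 9 were the simple repeats CA and AG and are not printed.

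The broad regions had a median width of 1228 bp and a largest width of 3226 bp, and they covered 5.99 Mb. They made up 17.3% of the listed bases and held 30.8% of the TGF reads and 31.7% of the siHK1 reads in listed regions. A broad region held a median of 73 TGF reads and 40 siHK1 reads, where a narrower one held 15 and 8. Per kb the medians were 57.0 and 31.1 reads, against 39.1 and 21.3 in narrower regions. The broad regions thus held more reads even for their length, in both libraries. Reads were spread unevenly among them, since 58 broad regions with at least 1000 TGF reads held 13.6% of all TGF reads in the list.

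At the boundary of the selection, the 144 regions of 1000 to 1009 bp had a median of 55 TGF and 28 siHK1 reads, and the 115 regions of 990 to 999 bp had 48 and 27. The widest broad region, of 3226 bp, lay in an intron of Kif27 (chr13:58346414-58349639) with 283 TGF and 135 siHK1 reads, in tandem sequence of which 94.7% of 30-base windows recurred in the assembly. The next 4 by width lay in an intron of Gm7609 (3053 bp), in intergenic sequence nearest Stim2 (2954 bp), and in intergenic sequence nearest Dynlrb2 and Map3k7 (2951 bp each). Of the 10 widest, 9 were repeated sequence. The exception was an exonic region of 2757 bp nearest Sirpa (chr2:129614600-129617356), with 291 TGF and 134 siHK1 reads and 0.366% recurring windows.

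Distal intergenic sequence held most regions of either width. The authors' annotation placed 2893 of the broad regions in distal intergenic sequence (and 45923 of the 70245 narrower ones), 1003 in introns, 279 at promoters (up to 3 kb from a start site), 271 in exons, 50 in 3′ UTRs, 9 in 5′ UTRs and 1 downstream of a gene. Promoters held 6.19% of broad regions (95% interval 5.51 to 6.94) and 6.82% of narrower ones (6.64 to 7.01). The shares differed by less than 1 percentage point, although promoters were 9.80% of the 204 regions of 2000 bp or more. Intervals here and below are exact binomial ones, cover counting error only and treat regions as independent, which copies of a repeat are not. On chromosomes 1 to 19 there were 10.3 to 20.8 broad regions per 10 Mb of sequenced bases, and on X 24.9. X was dense in regions of every width, since 6.37% of its regions were broad, within the 4.35% to 7.80% of the autosomes.

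Over the whole list, more of the broad than of the narrower regions were repeated sequence, but not at matched read level. A region was called repeated where at least 50% of its sampled 30-base windows had another exact copy in the assembly, and single-copy where under 10% did. Of the broad regions 2772 were repeated (61.5%, 95% interval 60.1 to 62.9) and 807 single-copy (17.9%), against 47.1% and 31.9% of narrower regions. This order turned when regions were split into 5 equal groups by mean level. In the highest group, with 4275 of the broad regions, 63.6% of broad and 73.9% of narrower regions were repeated, and in the group below it, with 228, 24.1% and 61.0%. Without regard to level, within distal intergenic sequence the repeated share was 65.9% of broad and 51.5% of narrower regions. In introns it was 63.6% against 43.4%, at promoters 33.3% against 24.7%, and in exons 45.8% against 39.7%. The 3′ UTRs went the other way, with 6 of 50 broad regions and 20.5% of narrower ones. Soft-masked bases, the assembly's own mark of repeats, took a median of 77.4% of a broad region and 60.3% of a narrower one. Median GC content was 49.5% against 48.4%, and the ratio of observed to expected CpG 0.31 against 0.18. These gaps were also absent or turned at matched level. In the highest group masked bases were 82.0% of broad and 86.8% of narrower regions. GC content there was 49.7% and 49.6%, and the CpG ratio 0.325 and 0.321. In the group below it the medians were 41.4% and 79.6% masked, 47.7% and 49.4% GC, and CpG ratios of 0.166 and 0.244.

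**Figure D1:**
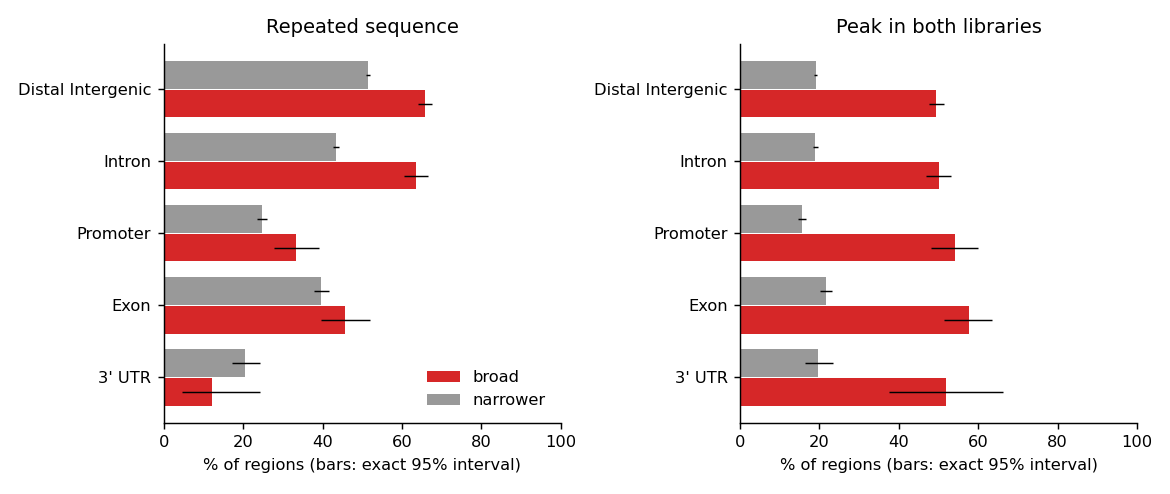
Share of H3K9lc regions made of repeated sequence (left) and with a peak called in both libraries (right), in % of the regions of each annotation class, for broad (red) and narrower (grey) regions; lines are exact 95% binomial intervals. Repeated sequence took a larger share of broad than of narrower regions in 4 of the 5 classes drawn, from 65.9% of broad distal intergenic regions to 6 of 50 broad 3′ UTR regions.

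A small number of sequences recurred through the broad regions. Grouping by shared 30-base words gave 9 families with a word common to at least 60 broad regions, and they took in 2038 broad regions (45.2%) but 18.9% of narrower ones. The words were drawn from broad regions alone, and a wider region holds more words that can match. The gap between these shares, here and by family below, is thus partly set by the method. In the highest level group the shares were 46.8% and 37.995%, and in the group below it 16.2% and 32.4%. Family 1 held 478 broad regions, 10.6% of broad and 3.08% of narrower ones. Family 2 held 413 (9.17% against 1.33%), family 3 held 358 (7.94% against 2.82%) and family 5 held 262 (5.81% against 4.29%). Family 8 alone took a smaller share of broad than of narrower regions (1.53% against 2.22%). The CA repeat took 193 broad regions and the AG repeat 66.

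Families 1, 3 and 7 had the layout of full-length L1 elements. In family 1 the printed word recurred at a spacing of 208 bp in 1109 of 1338 neighbouring pairs within broad regions, in family 3 at 212 bp in 497 of 680 pairs, and in family 7 at 206 bp in 185 of 284 pairs. An open reading frame of at least 1000 codons lay within 8 kb on the downstream side of 303 of 459 oriented members of family 1 (66.0%), 259 of 302 of family 3 (85.8%) and 68 of 91 of family 7 (74.7%). Downstream was taken, for each family, as the side with more such frames, so this order was set by the method. On the upstream side, read on the opposite strand only, such a frame was found at 2, 4 and 0 of them. The other 6 families had one downstream at 0 to 3.03% of members, and 3.36% of the 2468 broad regions in no family had one on either side. The 3 families with the tandem layout were also the GC-rich ones, with a median GC content of 60.6%, 61.5% and 62.7%, against 44.3% to 49.5% in the other 6.

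**Figure D2:**
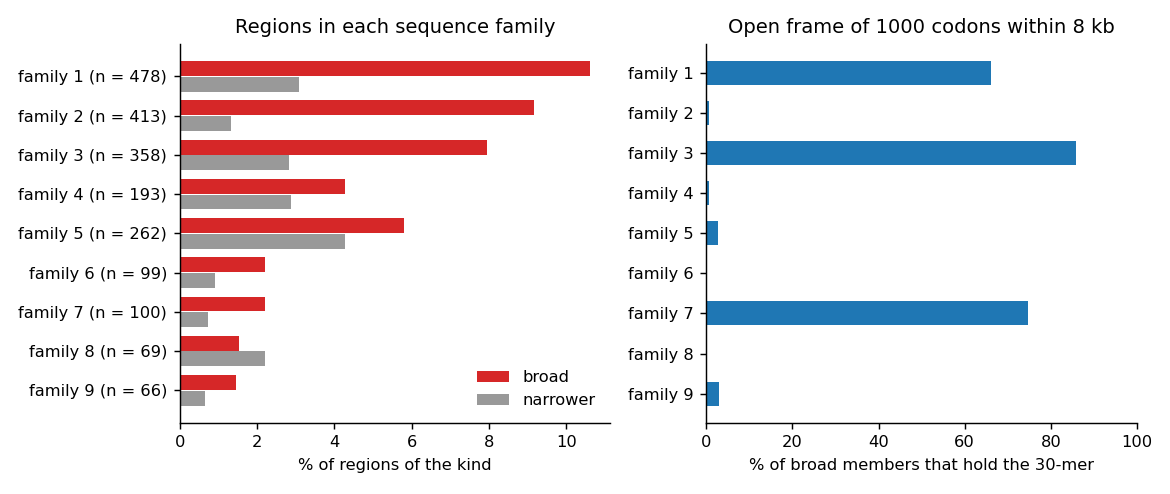
Share of broad (red) and narrower (grey) H3K9lc regions in each of the 9 sequence families, in % of regions of the kind (left), and share of oriented broad members with an open reading frame of at least 1000 codons on the downstream side within 8 kb, in % (right). Families 1, 3 and 7 stand apart on the right at 66.0%, 85.8% and 74.7%, and family 1 is the largest on the left with 478 broad regions. Family words were drawn from broad regions alone, and downstream is the side with more such frames in each family.

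Most genomic copies of these words were listed, but few as broad. The word of family 1 was found at 2309 places in the assembly, of which 449 lay in a broad region (19.4%) and 1282 in a narrower one. For families 2 and 3 a broad region covered 17.6% and 15.8% of 1999 and 1926 places, and a region of any width 66.9% and 73.4%. Family 8 was listed most often, at 87.4% of 1599 places, but only 7.19% were broad.

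Coding sequence was concentrated in the single-copy broad regions. Protein-coding bases made up 8.41% of them, against 3.32% of single-copy narrower regions, 0.785% of repeated broad regions and 1.38% of the genome. A coding exon touched 18.1% of single-copy broad regions and 5.99% of single-copy narrower ones. On X 79.4% of the 407 broad regions and 65.4% of the narrower ones were repeated.

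HK1 depletion was examined by the ratio of the deposited normalized log2 levels, siHK1 over TGF. The median over broad regions was -0.12 (95% interval -0.13 to -0.10) and over narrower regions -0.20. Of the broad regions 89.1% lay within 1.5-fold of equality, against 49.97% of narrower regions. At least 2-fold lower in siHK1 were 51 broad regions (1.13%), beside 16.4% of all listed regions, and at least 2-fold higher were 3 (0.067%), beside 10.6%. Both shares are tied to the selection, since broad regions held more reads and ratios of many reads scatter less. Without scaling, 1571 broad and 31312 narrower regions were at least 2-fold lower.

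The difference in median was smaller on the raw reads. The authors' scaling multiplies the log2 count of the TGF library by 0.964, so at a fixed ratio of reads the normalized ratio rises with read number. Without scaling, siHK1 over TGF reads had a median log2 ratio of -0.88 (-0.89 to -0.87) in broad and -0.89 (-0.90 to -0.89) in narrower regions. With both libraries brought to equal totals, which applies no slope, the medians were -0.07 and -0.12. In the highest of the 5 level groups the 2-fold lower share was 0.491% of broad and 0.806% of narrower regions, with medians of -0.11 and -0.08. In the group below it, it was 12.7% of broad and 5.43% of narrower regions.

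Within the broad regions the normalized ratio drifted with width and the raw ratio hardly did. It had a median of -0.15 in the 2054 regions under 1200 bp, -0.11 in the 1418 from 1200 to 1499 bp, -0.08 in the 830 from 1500 to 1999 bp and -0.02 in the 204 of 2000 bp or more. The raw medians were -0.89, -0.88, -0.86 and -0.84. Reads rose over the same groups, from a median of 58 TGF and 31 siHK1 reads to 158 and 87.5.

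**Figure D3:**
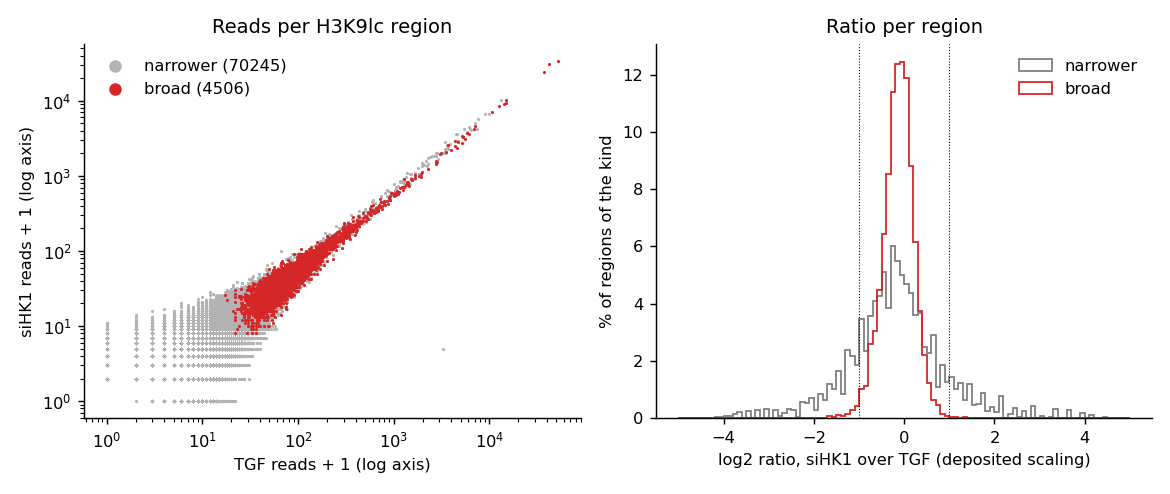
Reads per H3K9lc region in the TGF and siHK1 libraries, on log axes with 1 added (left), and the distribution of the log2 ratio of siHK1 over TGF on the deposited scale, in % of regions of each kind (right; dotted lines mark 2-fold), for 4506 broad (red) and 70245 narrower (grey) regions. Broad regions sit at higher read numbers, and 51 of them pass the lower and 3 the upper dotted line.

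The 51 lower broad regions had low counts, with a median of 48 TGF and 12 siHK1 reads, and a peak was called in both libraries at 5.88% of them. The lowest was an intronic region of Rad51b, a recombination repair gene, with 49 TGF reads (exact Poisson 95% interval 36.3 to 64.8) and 9 siHK1 reads (4.12 to 17.1). It was followed by an intergenic region nearest Rpia, a pentose phosphate enzyme gene (48 and 9 reads), and an intronic region nearest Adamts9, which encodes an extracellular protease (53 and 10 reads). The latter lay 4280 bp upstream of the Adamts9 start. The 3 higher regions lay at Gm20740 (21 TGF and 29 siHK1 reads), in intergenic sequence nearest Acnat1 (16 and 25) and at 5033403H07Rik (24 and 30). Their read numbers were below the broad median in both libraries.

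Among broad regions above the broad median level, the lowest ratios were -0.97 nearest Il21, a T-cell cytokine gene (115 TGF and 34 siHK1 reads), -0.94 at Kdelr2, which encodes an endoplasmic reticulum retrieval receptor (136 and 41), -0.87 at Arl15 (130 and 41), -0.87 nearest Tnfrsf22 (156 and 49) and -0.86 nearest Pramel50 (100 and 32). None reached 2-fold. The highest were 0.86 at Pdcd1lg2, an immune checkpoint ligand gene (55 and 60), 0.85 nearest Nron, a noncoding RNA (67 and 72), 0.81 at Celsr1, an adhesion receptor gene (65 and 68), 0.79 nearest Plxna4, a semaphorin receptor gene (89 and 91), and 0.79 nearest Neurl1b, a ubiquitin ligase gene (66 and 68). In these 5 the siHK1 library had slightly more raw reads than the TGF library, whose total over listed regions was larger.

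Peak calls gave a further view of both libraries. A peak was called in both at 2270 broad regions (50.4%, 95% interval 48.9 to 51.8), in TGF alone at 1974 (43.8%), in siHK1 alone at 225 (4.99%) and in neither at 37 (0.82%). Of narrower regions 18.9% had a peak in both and 25.5% in siHK1 alone. Broad regions called in TGF alone still had a median of 34 siHK1 reads beside 65 TGF reads, and a median ratio of -0.23, so siHK1 reads were present there without a peak call. In narrower regions called in TGF alone the median ratio was -0.64. Within the highest of the 5 level groups, the share with a peak in both was lower for broad (52.5%) than for narrower regions (60.3%).

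The sequence families all had median ratios below 0. Their median ratios ran from -0.18 in families 3 and 5 (95% intervals -0.22 to -0.13 and -0.22 to -0.13) to -0.06 in family 6 (-0.14 to 0.03). Family 2 stood at -0.074 (-0.125 to -0.042), an interval that did not meet that of family 3 (-0.223 to -0.128). Family 1, with the tandem layout, stood at -0.11 (-0.14 to -0.08) and 5 of its 478 members were at least 2-fold lower. Single-copy broad regions had a median ratio of -0.10 (-0.12 to -0.07) and repeated ones of -0.12 (-0.13 to -0.10), with overlapping intervals. Families differed more in peak calls, from 83.5% of family 1 with a peak in both libraries to 26.3% of family 5, although both held about 70 TGF reads per kb (71.0 and 70.0).

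The broad regions with the most reads, named after their values were seen, included repeated and tandem sequence. Of the 58 with at least 1000 TGF reads 28 were repeated (48.3%), a lower share than the 61.5% of all broad regions. The first was an intronic region of 2700054A10Rik at chr17:13550673-13553195 with 52412 TGF and 33960 siHK1 reads, and the next a region at chr2:98666240-98667320 with 42265 and 30866. Another 6 lay at the assembled start of chromosome 9, from chr9:3000003 to chr9:3035432, with 5220 to 14856 TGF reads and 3302 to 10113 siHK1 reads. Of these 6, 4 matched themselves at a shift of 234 bp over 80.5% to 94.8% of their bases. One unit of the region at chr9:3034295-3035432 is printed from its start (plus strand, GRCm38), with capitals at the 15 bases that differ from the next unit.
chr9:3034295-3034528: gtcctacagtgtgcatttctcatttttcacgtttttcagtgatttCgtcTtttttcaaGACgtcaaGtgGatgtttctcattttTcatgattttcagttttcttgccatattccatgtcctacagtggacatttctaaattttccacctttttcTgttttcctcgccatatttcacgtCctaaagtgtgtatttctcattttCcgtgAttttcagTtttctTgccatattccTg
A further 4 broad regions, with 931 to 5851 TGF reads, had at least 50% of their 30-base words in the mitochondrial genome. The most read of them was chr1:24614854-24616136 (5851 TGF and 3681 siHK1 reads), with 100% of its words there.

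The 58 broad regions with at least 1000 TGF reads had a median ratio of 0.13 (95% interval 0.09 to 0.20) on the deposited scale, against -0.12 in the other 4448. On raw reads the medians were -0.80 and -0.88, so the gap was smaller there. None of the 58 was past 2-fold in either direction, and a JUN region overlapped 94.8% of them, a SMAD3 region 98.3% and an NFATC2 region 100%. In the NC library the region at chr2:98666240-98667320 held 7656 reads, the largest count of that library at any broad region. Nearly all of these places were thus listed for every antibody profiled.

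Factor binding was compared next, in libraries the selection did not use. A JUN region overlapped 405 broad regions (8.99%, 95% interval 8.17 to 9.86), a SMAD3 region 664 (14.7%, 13.7 to 15.8) and an NFATC2 region 686 (15.2%, 14.2 to 16.3). Of narrower regions 5.72%, 5.97% and 6.02% had an overlap. Wide regions meet more of anything by their width, and within the central 200 bp the shares were 6.70% against 5.44% for JUN, 9.81% against 5.37% for SMAD3 and 9.59% against 5.25% for NFATC2. Over the whole region again, with the difference in width still present (median 1241 bp and 645 bp), in the highest level group JUN overlapped 9.08% of broad and 8.10% of narrower regions, SMAD3 15.2% and 11.1%, and NFATC2 15.7% and 11.7%. In the group below it SMAD3 overlapped 6.14% of broad and 6.39% of narrower regions, the opposite order, with NFATC2 at 6.58% and 6.28% and JUN at 7.46% and 5.29%. All 3 factors overlapped 266 broad regions and none overlapped 3471 (77.0%).

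Sequence copy number split the JUN comparison. Within the central 200 bp, a JUN region overlapped 4.46% of single-copy broad regions (95% interval 3.14 to 6.12) and 9.13% of single-copy narrower regions (8.75 to 9.51). For repeated sequence the order was turned, with 7.22% of broad (6.28 to 8.24) and 3.24% of narrower regions (3.05 to 3.43). For SMAD3 the single-copy shares were 5.33% of broad and 5.87% of narrower regions, and the repeated shares 11.5% and 4.91%. For NFATC2 they were 4.96% and 5.62%, and 11.6% and 4.91%. The larger central overlap of broad regions was thus present in repeated and not in single-copy sequence. The part of read level in this split was not tested. The AP-1 motif TGAGTCA, the site bound by JUN dimers, was searched on both strands in the central 200 bp and occurred in 2.35% of broad and 3.50% of narrower regions.

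Broad H3K9lc regions held a larger share of factor reads than of factor bases, and so did narrower ones. Factor regions that met narrower ones held 28.7% of SMAD3 TGF reads on 9.19% of bases, and 27.8% of NFATC2 TGF reads on 8.07%. For JUN these shares were 9.14% of TGF reads and 6.38% of bases. SMAD3 regions overlapping a broad region were 1.24% of the SMAD3 list and 2.35% of its bases, but held 26.9% of its TGF reads and 24.7% of its siHK1 reads. NFATC2 regions there were 2.16% of bases and held 31.1% and 28.2% of reads, and JUN regions were 0.945% of bases and held 2.79% and 3.38%. Without the 58 most-read broad regions the share of TGF reads was 3.21% on 1.94% of bases for SMAD3 and 3.09% on 1.77% for NFATC2. For JUN it was 0.622% on 0.743% of bases, so the JUN excess was absent there. The 4 mitochondria-like regions alone held 6.45% of the SMAD3 and 10.9% of the NFATC2 TGF reads. Most of the factor reads on broad regions thus came from a small set of places.

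**Figure D4:**
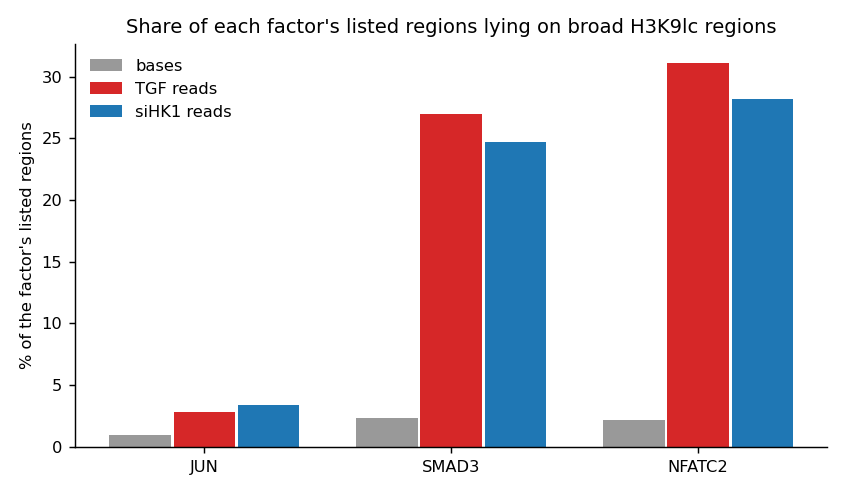
Share of each factor's listed regions that lie on broad H3K9lc regions, in % of the factor's listed bases (grey), of its TGF reads (red) and of its siHK1 reads (blue). For SMAD3 and NFATC2 the bars of reads stand at 24.7% to 31.1% over 2.35% and 2.16% of bases, and for JUN at 2.79% and 3.38% over 0.945%. Narrower H3K9lc regions, which also held more of the reads than of the bases, are not drawn.

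The ratio of siHK1 over TGF at those factor regions was read on each factor's own deposited scale. The median was -0.19 for JUN at broad regions, beside -0.13 over all JUN regions, and -0.68 for SMAD3 beside -0.16. For NFATC2 it was -0.49 beside 0.36. At factor regions that met narrower H3K9lc regions the medians were -0.08 for JUN, -0.38 for SMAD3 and -0.19 for NFATC2, so the SMAD3 and NFATC2 medians there also lay below those of the whole lists. The SMAD3 and NFATC2 medians rest on few reads, with 12 and 6 reads per region in the TGF and siHK1 SMAD3 libraries and 11 and 5 in those of NFATC2, against 4 and 3, and 3 and 2, over their whole lists. These scales also change with read number, and the part of read number in these gaps was not tested.

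Broad regions that were both low in copy and rich in CpG formed a group of their own. With a GC content of at least 50%, a CpG ratio of at least 0.6 and under 50% recurring windows, 51 broad regions qualified, of which 33 were promoters and 10 of those lay on X (30.3%, against 87 of 727 narrower promoters of the same sequence kind). This group and the genes named from it were chosen after the values were seen. A promoter of this kind is shown beside a CpG-poor intergenic region, with CpG dinucleotides in capitals (GRCm38). The first line holds the 250 bases before the RefSeq start of Efnb1 at chrX:99135811-99136060 (plus strand), with 13 CpGs, of which the broad region covers the part from 99135926 on, and the second the central 200 bases of a broad region nearest Axin2 at chr11:108913309-108913508 (plus strand), with 3.
Efnb1: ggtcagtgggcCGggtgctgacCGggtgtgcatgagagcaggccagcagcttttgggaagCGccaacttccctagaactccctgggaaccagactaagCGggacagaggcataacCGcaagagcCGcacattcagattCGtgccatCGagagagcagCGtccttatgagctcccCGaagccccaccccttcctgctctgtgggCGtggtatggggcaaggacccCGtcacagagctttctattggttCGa
Axin2: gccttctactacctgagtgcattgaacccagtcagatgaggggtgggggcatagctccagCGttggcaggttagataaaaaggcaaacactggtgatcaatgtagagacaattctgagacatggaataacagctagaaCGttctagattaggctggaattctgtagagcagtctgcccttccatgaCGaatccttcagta

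The X-linked members were the promoters of Efnb1, an ephrin ligand (97 TGF and 81 siHK1 reads), Foxo4, a forkhead transcription factor (75 and 52), Rhox13, a germ-cell homeobox gene (106 and 91), Taf7l, a testis subunit of the transcription machinery (51 and 30), and those of Nup62cl, Pcdh19, Chst7, Fgf16, Ribc1 and Rai2. Their log2 ratios ran from -0.75 at Fgf16 to 0.55 at Rhox13, on both sides of 0. The only one of the 51 past 2-fold was the promoter of 3110039M20Rik on chromosome 12 (46 and 12 reads, ratio -1.17). Other members, named after their values were seen, were the promoters of Impact (150 and 85 reads, ratio -0.03), Airn (75 and 32, -0.46) and Peg10 (54 and 19, -0.75). Another 6 members lay at Zfp27, Zfp316, Zfp334, Zfp629, Zfp784 and Repin1, with ratios from -0.05 to 0.44, and the zinc finger genes Klf14 and Bcl11b had ratios of -0.12 and 0.13. Protocadherin genes, which encode cell adhesion molecules, gave Pcdha1, Pcdha2, Pcdha5, Pcdha10, Pcdha11 and Pcdh19, with ratios from -0.47 to 0.09, and Gm38666 and Gm38667 in the same stretch of chromosome 18 had ratios of -0.01 and -0.50. The most-read members were 2 adjoining regions at Rn45s, the ribosomal RNA precursor, with 4549 and 1906 TGF reads, 2327 and 969 siHK1 reads, and ratios of -0.0047 and -0.06.

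A JUN region overlapped 11 of the 33 broad CpG-rich promoters (33.3%, 95% interval 17.96 to 51.8) and 416 of the 727 narrower ones (57.2%, 53.5 to 60.9). A SMAD3 region overlapped 9 of the 33 (27.3%) and 35.5% of the narrower ones, and an NFATC2 region 10 (30.3%) and 30.5%. The intervals of the JUN shares did not meet, and those of the others did.

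**Figure D5:**
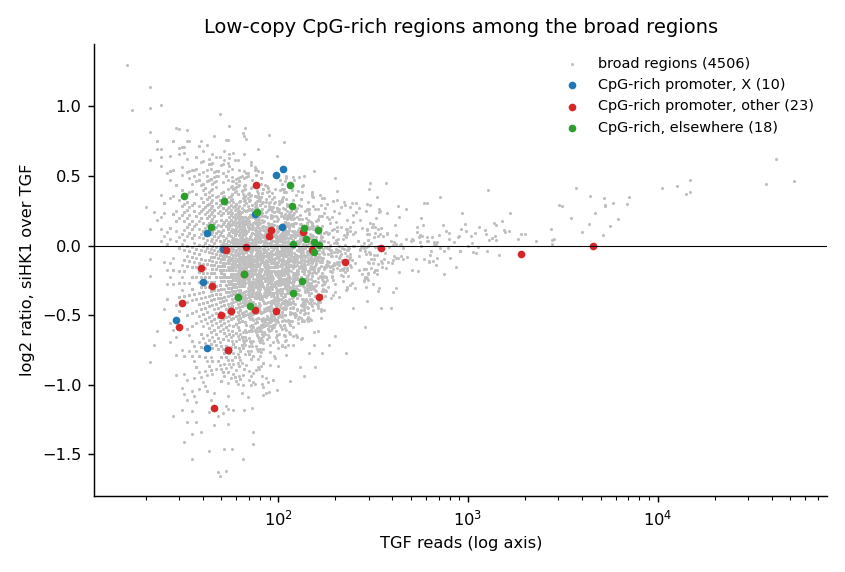
Log2 ratio of siHK1 over TGF on the deposited scale against TGF reads (log axis) for all 4506 broad regions (grey), with the 51 low-copy CpG-rich ones marked as X-linked promoters (blue, 10), other promoters (red, 23) and elsewhere (green, 18). The 51 marked ratios run from -1.17 at 3110039M20Rik to 0.55 at Rhox13, and both Rn45s points lie near 0 at the right.

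Among the 10 promoter regions with the highest level were the 2 at Rn45s, 4 at Sfi1, a centrosome gene, and 1 each at Dux, a homeobox gene of early embryos that occurs in a tandem array (1459 TGF and 743 siHK1 reads), Sp110 (1259 and 657), Sp140 (677 and 374) and AY761185 (997 and 538). Their ratios ran from -0.07 to 0.09, so none was near 2-fold. Dux, Sp140 and AY761185 were repeated sequence. No peak was called in siHK1 at Sp110 or Sp140 despite these reads.

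Broad regions were also counted by nearest gene. Of 12994 nearest genes in the list 3107 had a broad region (23.9%). Gm2101 on X had 19, all repeated, and Btbd35f10 on X had 11, also all repeated. 5730507C01Rik and Hnf4g had 9 each, and 6 other genes 8 each. The 19 regions of Gm2101 held 72 to 334 TGF reads (median 157) and 36 to 188 siHK1 reads (median 76), with a median ratio of -0.16 and none at 2-fold.

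Gene lists were read against the 23.9% of all nearest genes that had a broad region. Of 12 genes that the study followed, 10 had a region of any width and 2 a broad one (20%), Smyd3, a lysine methyltransferase, and Axin2, a Wnt pathway scaffold. The 3 intronic Smyd3 regions held 27, 114 and 32 TGF reads and 23, 73 and 11 siHK1 reads, with ratios of 0.47, 0.13 and -0.79. Their ratios lay on both sides of 0. The 2 intergenic Axin2 regions held 88 and 134 TGF reads and 42 and 76 siHK1 reads, with ratios of -0.30 and -0.03. None of the 5 reached 2-fold and none overlapped a JUN, SMAD3 or NFATC2 region.

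In the TGF-β pathway list 8 of 19 genes with a region had a broad one (42.1%, beside 23.9% of all genes). Among them were the receptors Tgfbr3 and Acvr2a, the signal transducer Smad3, the inhibitors Smad6 and Smad7, the ubiquitin ligase Smurf2 and the latency protein Ltbp1. The widest lay nearest Smurf2, 23275 bp from its start (2834 bp, 149 TGF and 80 siHK1 reads, ratio -0.11), in sequence that matched itself at a shift of 53 bp over 99.9% of its bases. The exonic region of Tgfbr3 (191 and 94 reads, ratio -0.22) and the region assigned to Acvr2a (112 and 72, 0.14) belonged to family 2. The latter lay 1195857 bp from the Acvr2a start, so a region in this count is not always close to its gene. All 10 broad regions of this list lay away from promoters, and none was at 2-fold.

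Of 23 extracellular matrix genes with a region 3 had a broad one, Col5a2, Col8a1 and Fbn2, the first 2 fibrillar or network collagens and the last a microfibril protein, with ratios from -0.30 to 0.27 over 4 regions. In the contractile list 2 of 10 had one, Palld (33 TGF and 10 siHK1 reads, ratio -0.96) and Mrtfa, a coactivator of serum response factor (41 and 24, -0.04). In the AP-1 list these were Fos (116 and 55, -0.30), Batf (55 and 28, -0.23) and Maf (65 and 49, 0.34) of 7. In the glycolysis and lactate list they were Pfkp, a phosphofructokinase (59 and 28, -0.32), and Slc16a1, a lactate transporter (46 and 26, -0.08), of 9, and Hk1 itself had no broad region. Of YAP and TEAD genes, Tead1 (73 and 50, 0.21) and Stk3 (157 and 74, -0.29) of 10 had 4 between them. Of cardiac fibroblast transcription factors these were Mef2c (67 and 51, 0.36) and Nfatc2 (70 and 29, -0.51) of 15, with 3 broad regions in all and a lowest ratio of -0.68, and of housekeeping genes Rps3 (21 and 20, 0.62) of 5. None of these regions passed 2-fold, and no broad region of these lists was a promoter.

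Among marker genes, none of 10 fibroblast markers with a region had a broad one. Broad regions were present at 2 of 4 cardiomyocyte markers, Ryr2 (38 TGF and 11 siHK1 reads) and Nkx2-5 (82 and 56), 1 of 4 endothelial markers, Tie1 (64 and 28), and 1 of 3 leukocyte markers, Adgre1 (27 and 11). The Ryr2 region, with a ratio of -1.03, was the only region of any list that was 2-fold lower. Ryr2, Tie1 and Adgre1 regions were repeated sequence.

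The ratio of TGF over NC was read in the table taken as H3K9lc from its name. It shares the TGF library with the comparison above. Of the broad regions 4500 (99.9%) overlapped a region of that table, against 75.5% of narrower ones, and they met 4828 regions there. These held a median of 2 NC reads and 66 TGF reads, and 791 had no NC read (16.4%, against 45.3% over the table and 54.7% at regions that met narrower ones). The median log2 ratio of TGF over NC was 1.14 (95% interval 1.10 to 1.17), beside 1.01 over the table and 1.17 at the regions that met narrower ones. In this table the deposited scale multiplies the log2 count of the TGF library by 0.861, so at a fixed ratio of reads this ratio falls with read number. At equal totals the median was 0.53 at broad regions and 0.68 over the rest of the table, the reverse of the order on the deposited scale (1.14 and 0.99). With a pseudocount of 1 at equal totals the medians were 0.46 and 0.41, and without scaling 4.64 and 4.15. At least 2-fold higher in TGF were 2719 (56.3%), beside 50.1% of all and 56.9% of those that met narrower regions, and at least 2-fold lower 15 (0.311%), beside 11.9% of all and 1.34% of those that met narrower regions. An NC peak was called at 202 of them (4.18%), at 14.0% over the table and at 2.10% of those that met narrower regions. The NC library held only 115572 reads in listed regions, so a level of 2 reads limits what the ratio at a single region can show.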

How the data were processed

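The study's methods name Bowtie2, MACS2 and GRCm39 for alignment and peaks, while the submitters' processing notes name BWA 0.7.12 and mm10. The coordinates fitted GRCm38, with 0 regions past a chromosome end. The protocol added spike-in DNA, and its use in scaling is not given in the sources used here. The authors deposited raw read counts per region, marks of called peaks and normalized log2 levels, each a straight line in log2(count + 0.5) with a slope of 0.964 for TGF and 1 for siHK1, and of 0.861 for the same TGF library and 1 for NC in the NC table. The log2 ratio is the difference of these deposited log2 levels. Columns of the authors' own fold changes, p-values and calls were not used. Totals over listed regions were 2490853 TGF, 1419023 siHK1 and 115572 NC reads. These are not library depths, which are not given in the sources used here.

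Sequence came from RefSeq GRCm38.p6 and coding bases from the GENCODE M21 annotation. Windows of 30 bases were sampled every 10 bp and their exact copies counted in the assembly. Families were built around the 30-base word shared by most broad regions not yet placed, with at least 60 regions per word, and took in regions sharing at least 20 of the family's frequent words. Shares carry Clopper-Pearson 95% intervals, medians order-statistic intervals and counts exact Poisson intervals, all for counting error only, since PCR reads are not independent molecules. Overlap means at least 1 shared bp. Python 3.11.15, numpy 2.4.6, pandas 2.3.3 and scipy 1.17.1 were used, and the overlap, interval and ratio code was tested on simulated data. Called means past 2-fold.

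The broad regions and the gene lists were chosen with earlier results of these data known. The named genes were the study's 12, the 10 widest regions, the 10 promoters of highest level, the 5 lowest and 5 highest ratios above the median broad level, the 10 genes with most broad regions and up to 3 genes per list. CpG-rich, most-read and 2-fold regions were named after their values were seen. A TGF library whose labels give no antibody was not used here. One list member is not reported here by name.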

Additional observations from a re-analysis of the deposited data

How the results depend on the processing

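No paired analysis was possible because a condition held a single library, which also left no replicate to drop. Of 73 alternatives over 12 results, 24 stayed within the counting interval (or 1.5 times a count), 49 moved and 0 reversed in sign. The settings that left out repeated or most-read regions, and the totals taken without most-read regions, were chosen after seeing the data.

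A minimum width of 800, 1500 or 2000 bp gave 8464, 1034 or 204 broad regions, with a median ratio of siHK1 over TGF of -0.14, -0.071 or -0.023. The JUN overlap was then 7.93%, 13.6% or 20.6%. At 800 bp a peak was called in both libraries at 48.3%, and at 2000 bp at 62.3%. Promoters were 6.96% at 1500 bp and 9.80% at 2000 bp, above the 6.78% and 6.77% of the remaining regions, so the order of broad and narrower turned there. Median GC content was 49.7% at both. Promoters within 1 kb were 2.93%.

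The median ratio was -0.88 without scaling, -0.073 at equal totals, -0.072 at equal totals with a pseudocount of 1, and -0.012 with totals over regions under 1000 TGF reads. Regions at least 2-fold lower numbered 1571 without scaling, 33 with the pseudocount of 1 and 29 with totals over regions under 1000 TGF reads. At least 2-fold higher were 0 without scaling and 6 in each of the 3 equal-total settings. At 1.5-fold 424 were lower and 66 higher, and at 4-fold 0 and 0. Lower calls depended on whether the libraries were scaled and on the fold, so a count of them is tied to both.

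In the central 200 bp JUN overlapped 6.70%, SMAD3 9.81% and NFATC2 9.59% of broad regions, with median GC content 50.5% and masked bases 91.5%. With under 50% of windows repeated, 28 broad regions were 2-fold lower, a peak was called in both libraries at 44.2%, the SMAD3 and NFATC2 overlaps were 11.1% and 11.9%, and GC content was 48.0%. Without the regions of 1000 or more TGF reads the overlaps were 7.87%, 13.6% and 14.1%.

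The ratio of TGF over NC was 0.53 at equal totals, 4.64 without scaling, 0.46 at equal totals with a pseudocount of 1, 1.07 above the median level and 1.18 with under 50% of windows repeated. At equal totals it was 0.68 over the rest of that table, above the broad regions, while on the deposited scale (0.99) it was below them. For these shifts the cause was not tested. Depth limits the NC ratio, with a median of 2 NC reads at a broad region.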
